A study of Mus musculus with 43 samples.

Results

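The genes described here are 9 inhibitors of TGFB signalling (Smad6, Smad7, Ski, Skil, Pmepa1, Bambi, Smurf1, Smurf2 and Tgif1), picked by gene symbol. All 9 had a row in each bulk RNA-seq table (23951 genes) and in the single-cell matrices (54307 gene rows). TGFB1 signals through receptor kinases that phosphorylate SMAD proteins, and the SMADs then enter the nucleus and switch genes on or off. Several of those genes encode proteins that dampen the same pathway, which makes a negative feedback loop. In the intestinal epithelium TGFB signalling is best known for holding back proliferation and for its part in repair after injury.

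The bulk material was wild-type C57BL/6 primary intestinal organoids, which are epithelial cultures grown in Matrigel. There were 6 groups of 3 RNA-seq libraries. The first pair, called D7 non-IR, was never irradiated and received vehicle or TGFB1 at 2 ng/mL for 24 h from day 6. The other pairs had been irradiated with 4 Gy on day 4, received the same 24 h of treatment, and were collected on day 7 (D7 IR) or on day 11 (D11 IR). Single-cell RNA-seq covered organoids of the same strain, irradiated with 4 Gy on day 4 and collected on day 8 after 1 ng/mL TGFB1 for 6, 15 or 24 h, or after 24 h of vehicle (called 0 h), with 1 library each. It also covered Ki67-RFP+ crypt cells sorted from Mki67tm1.1Cle/J mice, which carry a red fluorescent reporter of the proliferation protein Ki67. That set had 1 library from non-irradiated mice and 2 libraries taken 56 h after 12 Gy of whole-body irradiation. The bulk and single-cell experiments differed in dose and day, so their values are set side by side only. The labels do not say that replicates were separate cultures, so p-values measure the spread between libraries, which may be technical.

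Bulk values are FPKM (fragments scaled by transcript length and library size), and their read depth is unknown. The single-cell libraries kept 699 to 4283 cells and held 12344815 to 32430950 UMIs, and any 2 libraries shared at most 1 cell barcode. The organoid label fitted the markers: 6 general epithelial markers summed to 4705 to 14673 FPKM per library, against 0.0165 to 0.623 FPKM for 6 mesenchymal and 0.00760 to 0.330 FPKM for 6 endothelial markers. The epithelial sum itself was higher with TGFB1 in each condition, at 5002 to 5077 against 12794 to 13362 FPKM in D7 non-IR, 5338 to 5484 against 13557 to 14673 in D7 IR, and 4705 to 5829 against 6617 to 7226 in D11 IR. The part of this and of the sums that follow in the results below was not tested. The mesenchymal sum was also higher with TGFB1 at D7, at 0.0604 to 0.0947 against 0.170 to 0.427 FPKM in D7 non-IR and 0.0165 to 0.0422 against 0.245 to 0.623 FPKM in D7 IR, and overlapped at D11. The 6 immune markers summed to 2.16 to 2.80 FPKM with vehicle and 1.12 to 1.66 FPKM with TGFB1 in D7 non-IR, to 3.77 to 4.59 against 9.45 to 10.8 FPKM in D7 IR, and to 2.83 to 5.08 against 4.18 to 7.83 FPKM in D11 IR. In D7 IR this was mostly Lyz2 (2.88 ± 0.516 FPKM with vehicle and 8.88 ± 0.397 FPKM with TGFB1, SD, n = 3), while Ptprc reached at most 0.0726 FPKM in any library. In bulk libraries, fewer cells of a type and less RNA per cell cannot be told apart.

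Promoter windows from RefSeq (GRCm38.p6; 250 bases before to 50 after an annotated start) were used for 5 of the 9 genes. SMAD3 and SMAD4 are known to bind the short box CAGAC and the palindrome GTCTAGAC. Both were searched on both strands (CAGAC or GTCTG, and GTCTAGAC); the palindrome contains neither short word. The windows of Smad6, Smurf1 and Smurf2 are shown because Smad6 held the palindrome and because the 2 Smurf genes, with the same number of short boxes, had folds of 2.89 and 1.19 with TGFB1 in D7 non-IR. Capitals mark the matches.
Smad6 (chr9:64022010-64022309, minus strand): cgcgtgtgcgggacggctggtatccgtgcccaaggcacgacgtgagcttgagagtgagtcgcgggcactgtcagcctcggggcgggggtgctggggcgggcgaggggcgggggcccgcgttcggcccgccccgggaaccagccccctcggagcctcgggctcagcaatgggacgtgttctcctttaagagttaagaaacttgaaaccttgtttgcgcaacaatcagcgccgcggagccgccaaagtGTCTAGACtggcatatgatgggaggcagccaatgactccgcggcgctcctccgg
Smurf1 (chr5:144965781-144966080, minus strand): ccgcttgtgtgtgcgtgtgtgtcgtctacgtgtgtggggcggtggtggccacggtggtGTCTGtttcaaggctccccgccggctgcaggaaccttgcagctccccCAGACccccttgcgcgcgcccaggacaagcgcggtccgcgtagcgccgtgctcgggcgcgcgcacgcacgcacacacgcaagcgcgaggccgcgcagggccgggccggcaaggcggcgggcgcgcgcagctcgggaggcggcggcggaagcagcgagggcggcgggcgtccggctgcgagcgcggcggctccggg
Smurf2 (chr11:106920666-106920965, minus strand): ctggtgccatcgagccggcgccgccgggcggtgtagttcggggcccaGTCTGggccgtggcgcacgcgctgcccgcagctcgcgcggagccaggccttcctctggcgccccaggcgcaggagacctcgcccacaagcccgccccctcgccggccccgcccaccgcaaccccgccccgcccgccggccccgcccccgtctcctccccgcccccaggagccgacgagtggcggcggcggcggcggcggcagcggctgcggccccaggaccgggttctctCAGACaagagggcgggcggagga
The palindrome in the Smad6 window began at base 247 from its 5′ end, across the annotated start, and 70 of 32851 windows of that length (0.213%) held this word. Smurf1 and Smurf2 each held 2 short boxes, a word present in 49.6% of all windows. The Ski window held neither word, and of the 5 windows of Tgif1, 3 held the short box. A match is a description of the letters and not a bound site.

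TGFB1 raised 8 of the 8 members that could be tested in both D7 comparisons, and by D11 the response of most of them was smaller. Pmepa1, Skil and Smad7 responded most at D7, and Smurf2 least. Smad6 was no longer higher at D11, and the Smurf1 response was not shown to differ between the days. Tests were made with limma on log2(FPKM + 1) for genes whose mean reached 1 FPKM, and calls are at a Benjamini-Hochberg adjusted p under 0.05. The share of all tested genes called higher was 33.3% in D7 non-IR, 35.8% in D7 IR and 32.3% in D11 IR; the counts of members are read against these shares. The median log2 change of the 8 tested members was 1.34, 1.62 and 0.78 in the same order, beside −0.02, −0.03 and 0.01 over all genes tested.

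**Figure D1:**
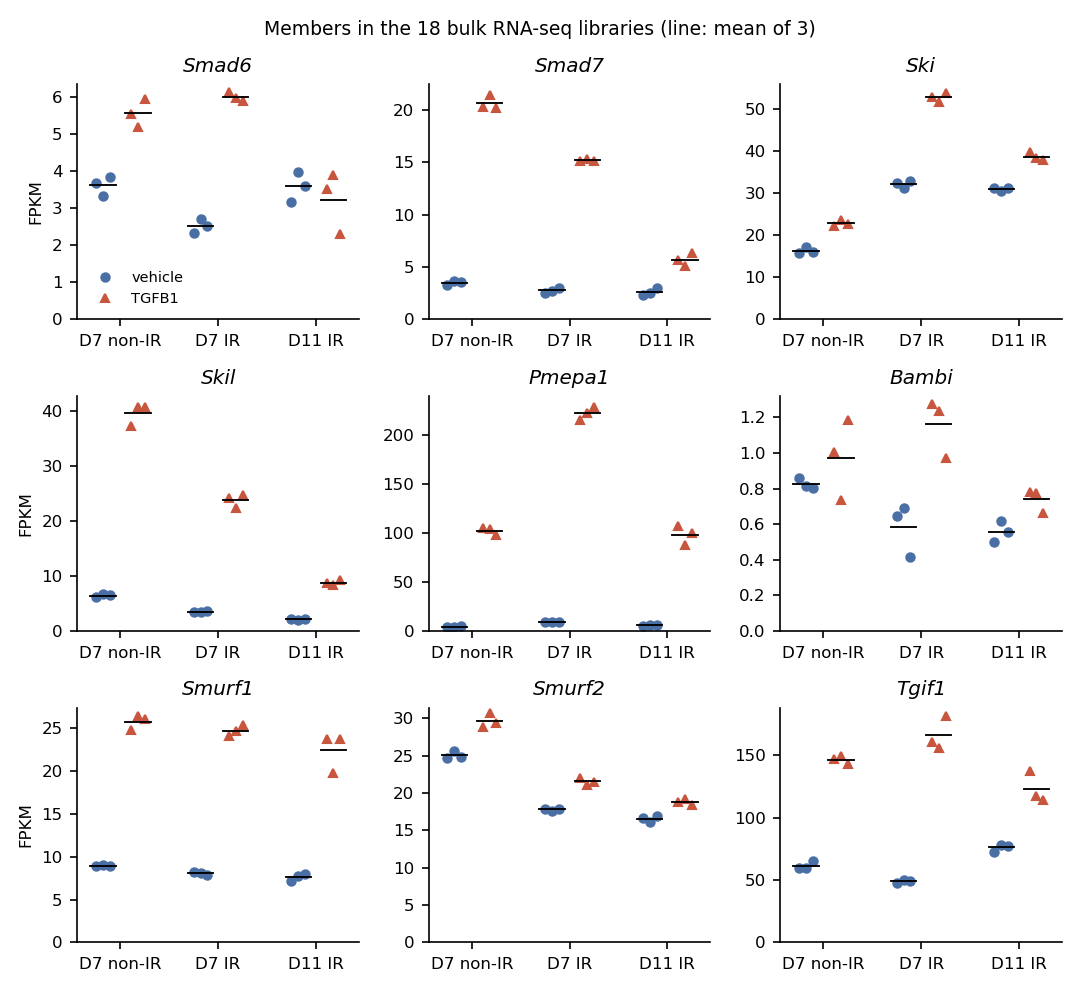
FPKM (y axis, from 0, own scale for each gene) of the 9 genes in the 18 bulk RNA-seq libraries, for vehicle (circles) and TGFB1 (triangles) in the 3 conditions on the x axis; the line is the mean of 3 libraries. Pmepa1 with TGFB1 lay at 98.2 to 104.7 FPKM in D7 non-IR and at 215 to 229 FPKM in D7 IR, above all vehicle libraries.

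Among the inhibitory SMADs, Smad7 blocks the activated TGFB receptor and recruits ubiquitin ligases to it, and Smad6 acts mainly on the BMP branch. Smad7 measured 3.31, 3.69 and 3.55 FPKM with vehicle and 20.3, 21.5 and 20.2 FPKM with TGFB1 in D7 non-IR. In D7 IR it measured 2.57, 2.76 and 2.96 FPKM against 15.2, 15.3 and 15.1 FPKM. In D11 IR it measured 2.33, 2.51 and 3.03 FPKM against 5.69, 5.10 and 6.30 FPKM. In each condition all TGFB1 libraries lay above all vehicle libraries, and at D11 the gap was smaller. Its log2 changes were 2.26 ± 0.05 (SE; limma adjusted p = 6.8e-11), 2.11 ± 0.06 (adjusted p = 5.3e-10) and 0.89 ± 0.11 (adjusted p = 9.3e-05), and the ratios of mean FPKM, without the pseudocount, were 5.88, 5.50 and 2.17.

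Smad6 had smaller responses from a similar vehicle level. It measured 3.68, 3.32 and 3.83 FPKM with vehicle and 5.52, 5.20 and 5.94 FPKM with TGFB1 in D7 non-IR, and 2.33, 2.71 and 2.51 against 6.14, 5.98 and 5.89 FPKM in D7 IR. These groups did not overlap, and the log2 changes were 0.51 ± 0.07 (adjusted p = 7.0e-05) and 1.00 ± 0.07 (adjusted p = 2.7e-07). At D11 the groups overlapped, with 3.17, 3.98 and 3.61 FPKM for vehicle and 3.50, 3.88 and 2.29 FPKM for TGFB1. That log2 change was −0.13 ± 0.15 (adjusted p = 0.457) and was 0.04 without TGFB1 replicate 3, the lowest library.

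Ski and Skil (SnoN) are related corepressors that bind SMAD complexes on DNA and silence their targets, and SKIL is itself degraded when the pathway is active. Skil with vehicle measured 6.11, 6.71 and 6.44 FPKM in D7 non-IR, 3.45, 3.37 and 3.68 FPKM in D7 IR and 2.24, 2.01 and 2.25 FPKM in D11 IR. With TGFB1 it measured 37.1, 40.7 and 40.6 FPKM, 24.2, 22.3 and 24.6 FPKM, and 8.75, 8.26 and 9.22 FPKM. No TGFB1 library overlapped the vehicle libraries of its condition, and the log2 changes were 2.45 ± 0.05, 2.46 ± 0.06 and 1.62 ± 0.09 (adjusted p = 3.3e-11, 1.9e-10 and 5.4e-07), and the ratios of mean FPKM were 6.15, 6.77 and 4.03.

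Ski was already expressed at a higher level and rose less. It measured 15.7, 17.1 and 16.0 FPKM against 22.4, 23.8 and 22.6 FPKM in D7 non-IR, 32.5, 31.3 and 32.9 against 52.9, 51.7 and 54.0 FPKM in D7 IR, and 31.3, 30.6 and 31.3 against 39.9, 38.4 and 38.0 FPKM in D11 IR. The groups were separate in all 3 conditions. The log2 changes were 0.47 ± 0.05 (adjusted p = 5.4e-06), 0.70 ± 0.04 (adjusted p = 6.1e-08) and 0.31 ± 0.06 (adjusted p = 0.0020). Its mean vehicle level was 16.3 FPKM in the non-irradiated table and 32.3 and 31.0 FPKM in the irradiated ones, a difference between separately made tables that was not tested.

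Tgif1 encodes a homeodomain corepressor that joins SMAD complexes in the nucleus, and it had the highest vehicle level of the 9 genes per length of transcript in each condition. It measured 59.3, 59.4 and 65.3 FPKM against 147, 150 and 143 FPKM in D7 non-IR, and 48.1, 50.2 and 49.0 against 161, 156 and 182 FPKM in D7 IR. At D11 it measured 72.4, 78.5 and 77.8 FPKM against 138, 117 and 114 FPKM. The groups did not overlap anywhere, and the log2 changes were 1.25 ± 0.04, 1.74 ± 0.05 and 0.68 ± 0.09 (adjusted p = 9.7e-10, 1.1e-09 and 1.3e-04).

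Pmepa1 encodes a membrane protein that holds back receptor-activated SMADs from the receptor. Its response was the largest of the 8 tested members in each condition. With vehicle it measured 4.22, 3.85 and 4.59 FPKM in D7 non-IR, 8.78, 9.05 and 9.58 FPKM in D7 IR and 4.58, 6.17 and 5.96 FPKM in D11 IR, and with TGFB1 104.7, 104.0 and 98.2 FPKM, then 215, 223 and 229 FPKM, then 107, 88.2 and 100.009 FPKM. Every TGFB1 library was far above every vehicle library, also 4 days after the 24 h of treatment ended. The log2 changes were 4.31 ± 0.05 (adjusted p = 2.5e-12), 4.46 ± 0.04 (adjusted p = 1.8e-12) and 3.92 ± 0.11 (adjusted p = 1.7e-08), and the ratios of mean FPKM were 24.3, 24.4 and 17.7.

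Bambi encodes a pseudoreceptor, a receptor-like protein without a kinase domain. It had the lowest levels of the 9 genes, did not pass the filter, and is left out of the counts above. It measured 0.861, 0.816 and 0.801 FPKM against 1.00, 0.733 and 1.19 FPKM in D7 non-IR, where the groups overlapped. In D7 IR it measured 0.647, 0.693 and 0.415 FPKM against 1.28, 1.24 and 0.971 FPKM, and in D11 IR 0.501, 0.615 and 0.554 against 0.780, 0.773 and 0.664 FPKM, with no overlap in either. In fits without the filter the log2 changes were 0.11 (adjusted p = 0.396), 0.45 (adjusted p = 0.0057) and 0.16 (adjusted p = 0.094). A separate row, Bambi-ps1, measured 0.674 ± 0.109 FPKM with vehicle and 2.39 ± 0.487 FPKM with TGFB1 in D7 IR (SD, n = 3), and if reads were shared between these 2 sequences the Bambi values are uncertain.

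Smurf1 and Smurf2 are related ubiquitin ligases that mark SMADs and receptors for degradation. Smurf1 with vehicle measured 8.90, 9.001 and 8.89 FPKM in D7 non-IR, 8.24, 8.10 and 7.91 FPKM in D7 IR and 7.14, 7.71 and 8.04 FPKM in D11 IR. With TGFB1 it measured 24.8, 26.5 and 26.1 FPKM, 24.1, 24.7 and 25.4 FPKM, and 23.8, 19.8 and 23.8 FPKM. The groups were separate in each condition and the fold of the means was 2.89, 3.06 and 2.94 (log2 changes 1.43 ± 0.04, 1.5 ± 0.05 and 1.44 ± 0.09; adjusted p = 4.3e-10, 9.6e-10 and 1.0e-06). Smurf2 measured 24.7, 25.7 and 24.9 FPKM against 28.9, 30.7 and 29.4 FPKM in D7 non-IR, 17.9, 17.7 and 17.9 against 22.1, 21.1 and 21.5 FPKM in D7 IR, and 16.7, 16.1 and 17.0 against 18.8, 19.2 and 18.3 FPKM in D11 IR. Its groups did not overlap either, but its log2 changes were 0.24 ± 0.04 (adjusted p = 3.3e-04), 0.26 ± 0.04 (adjusted p = 2.0e-04) and 0.17 ± 0.07, and the last did not pass (adjusted p = 0.0520, and 0.00147 to 0.155 over 12 alternatives). Groups without overlap and with TGFB1 higher were found in 35.3%, 37.1% and 35.8% of all genes, in the order of the conditions above.

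**Figure D2:**
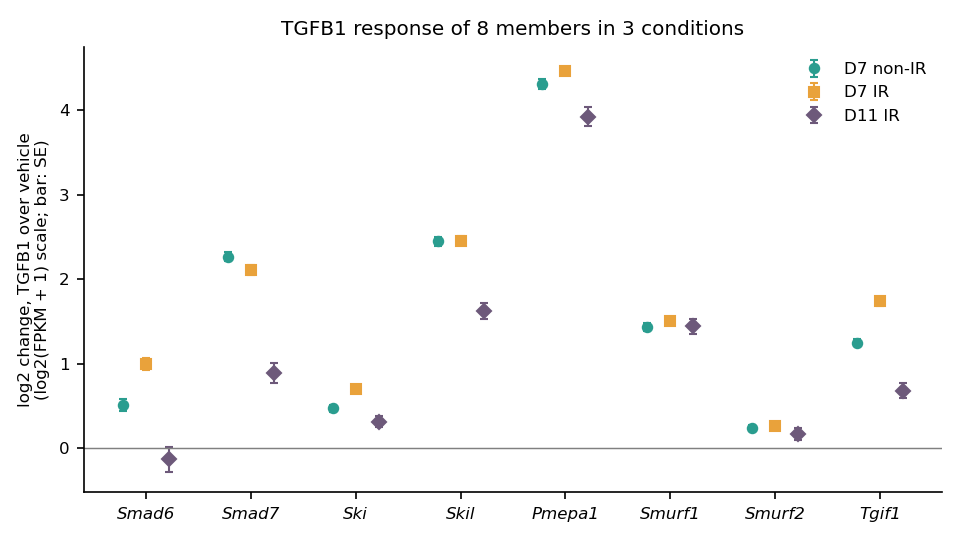
Log2 change of 8 genes with TGFB1 over vehicle (y axis, log2(FPKM + 1) scale; points are limma estimates, bars SE) in the 3 conditions. Smurf1 lay at 1.43, 1.5 and 1.44, while Smad7 went from 2.26 and 2.11 on day 7 to 0.89 on day 11.

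Whether prior irradiation changed the response was tested as the D7 IR effect minus the D7 non-IR effect over the 12 day 7 libraries. Vehicle levels that differ between the 2 conditions enter this term too. Mean Smad6 was 3.61 FPKM in D7 non-IR and 2.52 FPKM in D7 IR with vehicle, and 5.55 and 6.00 FPKM with TGFB1. Mean Tgif1 was 61.3 and 49.1 FPKM with vehicle, and 147 and 166 FPKM with TGFB1. The effect was larger after irradiation for Smad6 (0.49 ± 0.09, adjusted p = 5.0e-04), Ski (0.23 ± 0.06, adjusted p = 0.0045) and Tgif1 (0.49 ± 0.07, adjusted p = 6.3e-05). That is 3 of 8 tested members, in a comparison where this difference was positive for 25.3% of all genes and negative for 27.8%. The differences for the other 5 did not pass, and their 95% intervals were −0.32 to 0.01 for Smad7, −0.16 to 0.17 for Skil, −0.0014 to 0.31 for Pmepa1, −0.05 to 0.19 for Smurf1 and −0.08 to 0.14 for Smurf2. Smad7 passed under quantile normalization (−0.26, adjusted p = 0.0086) and when vehicle replicate 1 of D7 IR was left out (−0.19, adjusted p = 0.048), and Pmepa1 without D7 non-IR vehicle replicate 2 (0.20, adjusted p = 0.0207).

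Decay was tested as the D11 effect minus the D7 effect over the 12 irradiated libraries. A change of the vehicle level between the days enters this term as well as a change of the TGFB1 level. Mean Tgif1 was 49.1 FPKM at D7 and 76.2 FPKM at D11 with vehicle, and 166 and 123 FPKM with TGFB1. Mean Pmepa1 was 9.14 and 5.57 FPKM with vehicle, and 222 and 98.4 FPKM with TGFB1. The size of a term is therefore not the loss of the TGFB1 level alone. In all, 6 of the responses were smaller at D11: Smad7 by −1.22 ± 0.12 (adjusted p = 1.4e-06), Smad6 by −1.13 ± 0.17 (adjusted p = 6.7e-05), Tgif1 by −1.06 ± 0.11 (adjusted p = 1.4e-06), Skil by −0.84 ± 0.10 (adjusted p = 5.4e-06), Pmepa1 by −0.54 ± 0.13 (adjusted p = 0.0020) and Ski by −0.39 ± 0.07 (adjusted p = 1.6e-04). These are 6 of 8 members, and the term was negative for 33.0% of all genes and positive for 31.5%. The terms of Smurf1 (−0.06 ± 0.10, adjusted p = 0.62) and Smurf2 (−0.09 ± 0.07, adjusted p = 0.25) did not pass, with 95% intervals of −0.28 to 0.16 for Smurf1 and −0.24 to 0.05 for Smurf2. The Pmepa1 term did not hold under quantile normalization (−0.14, adjusted p = 0.422).

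By the root mean square difference of the 3 log2 changes over 10823 genes, the genes whose pattern was nearest to Smad7 were Antxr2 (0.10), Rnf39 (0.19) and Tns4 (0.20). The nearest to Pmepa1 was Prkcdbp (0.12), with P2rx2 (0.47) and Tnfrsf11b (0.54) much farther off. The nearest to Skil were Fstl1 (0.11), Timp3 (0.16) and Adam8 (0.16). The 3 comparisons hold 18 libraries in all.

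The shares of all genes called lower were 34.9%, 39.7% and 31.6% in the 3 conditions, beside the shares higher given above. The other genes of the pathway were taken from lists of ligands, receptors, SMADs, regulators and targets, and changes of at least 1 on the log2 scale are named. Of 15 tested other negative regulators, 5 were higher and 7 lower in D7 non-IR; the numbers were 6 and 7 after irradiation at D7, and 9 and 4 at D11, with median log2 changes of −0.02, 0.01 and 0.25 (the medians over all genes stand above). Ldlrad4, which like Pmepa1 carries a SMAD interaction motif, rose by 1.82 ± 0.07 (adjusted p = 2.7e-09) and 2.38 ± 0.10 (adjusted p = 7.5e-09) at D7. Its effect was smaller by −1.90 ± 0.17 at D11 (adjusted p = 4.1e-07). Tgif2, the relative of Tgif1, went the other way, with −1.26 ± 0.06 in D7 IR and −1.53 ± 0.15 in D11 IR (adjusted p = 1.4e-08 and 1.9e-05). The same list counts Usp2, a deubiquitinase whose direction of action on the pathway was not examined. Usp2 fell in D7 non-IR, with a log2 change of −1.70 (adjusted p = 4.2e-09). In D7 IR it was at 4.58 FPKM with vehicle and 0.814 FPKM with TGFB1, and at D11 at 3.79 and 0.337 FPKM.

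Receptor genes split, with 3 higher and 2 lower of 8 tested in D7 non-IR. The numbers were 3 and 1 after irradiation at D7, and 4 and 2 at D11, with medians of 0.0030, 0.07 and 0.20. Acvr1, a type I receptor of the BMP branch, rose by 1.36 and 1.48 at D7 (adjusted p = 8.5e-10 and 1.6e-09), and Bmpr2 by 1.06 in D7 IR (adjusted p = 1.4e-07). Of 5 tested SMADs, 3 were higher and 1 lower in D7 non-IR, 2 and none in D7 IR, and 3 and 1 in D11 IR, and none reached a log2 change of 1. Of 6 genes listed as positive regulators of the pathway, 3 were higher in each condition and 1, 2 and 2 were lower. Their action on the 9 proteins was not examined.

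Among ligands, Tgfb1 itself rose from 9.95 to 28.3 FPKM in D7 non-IR (log2 change 1.42, adjusted p = 6.3e-09) and from 3.43 to 33.5 FPKM in D7 IR (2.97, adjusted p = 2.8e-10), and its change did not pass at D11. Bmp7 fell in all 3 conditions (−1.18, −1.47 and −1.87; adjusted p = 1.2e-08, 1.4e-08 and 1.2e-06). Gdf15 fell by 1.13 on the log2 scale in D7 non-IR (adjusted p = 8.2e-07), and Bmp2 by 1.40 at D11 (adjusted p = 5.8e-04). Bmp4 was at 0.0846 FPKM with vehicle and 2.30 FPKM with TGFB1 at D11, and passed the filter there and in D7 non-IR only through its TGFB1 libraries, so it had to differ and its test is not used. In all, 3 of 5 tested ligands were higher and 2 lower in D7 non-IR, 2 and 2 of 4 in D7 IR, and 1 and 2 of 5 in D11 IR. The counts for D7 non-IR and D11 IR include Bmp4, which is the 1 higher ligand at D11.

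Known target genes of the pathway were mostly higher at D7, at 10 of 13 tested in D7 non-IR and 10 of 14 in D7 IR, against 7 of 14 at D11, with median log2 changes of 0.96, 0.99 and 0.26; 3, 2 and 2 were lower. Ctgf, a matrix signalling protein, rose by 4.22, 2.68 and 4.09 and Itgb6, an integrin that activates latent TGFB, by 2.01, 2.92 and 1.37 (adjusted p from 1.1e-11 to 2.0e-05). The growth factor gene Pdgfb rose by 1.73, 3.56 and 1.05 (adjusted p from 4.4e-11 to 1.3e-05). Id1 and Cdkn1a, which act in differentiation and cell cycle arrest, rose by 1.06 and 1.03 in D7 non-IR (adjusted p = 3.1e-09 and 1.1e-08). Junb and the cell cycle inhibitor Cdkn2b rose by 1.56 and 1.04 in D7 IR (adjusted p = 8.6e-10 and 8.2e-09). Fn1, which encodes fibronectin, was at 0.224 FPKM with vehicle and 6.72 FPKM with TGFB1 in D7 IR, and at 0.299 and 38.0 FPKM at D11. It passed the filter only through the TGFB1 libraries, so it had to differ, and its tests are not used, although the counts include it. Tgfbi was at 2.60 FPKM with vehicle and 0.611 FPKM with TGFB1 in D7 non-IR and at 8.75 and 0.804 FPKM at D11, and Tgm2 fell by 1.02 on the log2 scale at D11 (adjusted p = 3.4e-05). In the conditions where they are given in FPKM, Usp2 and Tgfbi had means of at least 1 FPKM only with vehicle. The counts of lower genes include them.

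The same named genes differed between conditions by at least 1 on the log2 scale in several cases. The D7 IR effect minus the D7 non-IR effect was positive for Pdgfb (1.84) and Tgfb1 (1.55) and negative for Ctgf (−1.54) and Tgm2 (−1.01), with adjusted p from 1.3e-09 to 5.2e-06. The D11 effect minus the D7 effect was negative for Tgfb1 (−3.06), Pdgfb (−2.51), Tgfbi (−2.08), Bmp2 (−1.67), Itgb6 (−1.55), Junb (−1.51), the regulator Dact2 (−1.14), Acvr1 (−1.07) and Cdkn1a (−1.01), and positive for Ctgf (1.41). Among these, Tgfbi was lower with TGFB1 on both days (−0.36 and −2.44). At D11 it had a mean of at least 1 FPKM only with vehicle, so its D11 change and its term are given as values and their tests are not used. Bmp2 (0.27 and −1.40) and Dact2 (0.22 and −0.93) were higher with TGFB1 at D7 and lower at D11. The adjusted p of the terms between days, with Tgfbi included, ran from 1.7e-09 to 5.3e-05.

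In the single-cell time course of irradiated organoids most of the 9 genes were already higher at 6 h. Values are CPM (summed UMIs of a gene scaled to the library's total), with exact Poisson 95% intervals that cover counting error only, and there was 1 library per time and so no test. A gene is counted as higher where its intervals do not overlap and the ratio is at least 1.5. By this rule 6 of 9 members were higher at 6 h, 5 at 15 h and 7 at 24 h than at 0 h, and none was lower. The same rule held for 3.47%, 7.18% and 10.5% of 8507 genes with a mean of at least 10 CPM, a set that leaves out Smad6 and Bambi, and 1.36%, 4.29% and 6.17% of those genes were lower. The 6 h library had the lowest median depth of the 4 (6709 UMIs per cell, against 7805 to 10441), and its part was not tested.

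**Figure D3:**
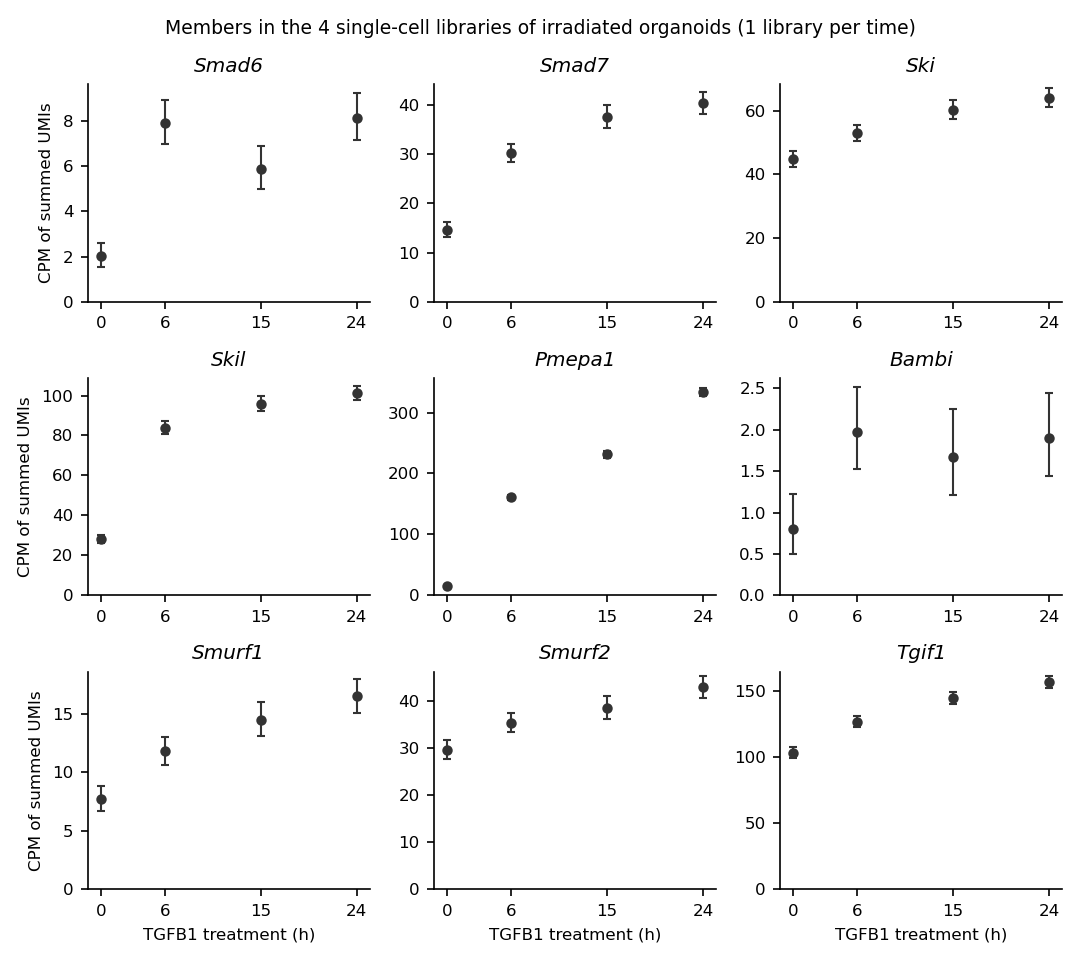
CPM of summed UMIs (y axis, from 0, own scale for each gene) against hours of TGFB1 (x axis) in 4 single-cell libraries of irradiated organoids; bars are exact Poisson 95% intervals, 1 library per point. Pmepa1 stood at 15.6, 161, 231 and 334 CPM, and Skil reached 83.8 CPM by 6 h and 101 CPM by 24 h.

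Pmepa1 was at 15.6 CPM (14.2 to 17.2) at 0 h, 161 (156 to 165) at 6 h, 231 (226 to 237) at 15 h and 334 (327 to 340) at 24 h, a ratio of 10.3 at 6 h and 21.4 at 24 h. Skil was at 28.0, 83.8, 96.0 and 101 CPM, so that 76.4% of its difference between 0 and 24 h was present at 6 h, against 45.6% for Pmepa1. Smad7 was at 14.7, 30.2, 37.6 and 40.5 CPM, with 60.3% of the difference at 6 h. These 3 genes differed in how much of the difference between 0 and 24 h was there at 6 h, although each was higher than at 0 h at 6, 15 and 24 h. The 15 and 24 h intervals overlapped for Skil (92.3 to 99.8 and 97.6 to 104.7 CPM) and Smad7 (35.3 to 40.0 and 38.2 to 42.8 CPM).

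Smad6 stood at 2.01 CPM (1.52 to 2.62) at 0 h and at 7.92 (6.99 to 8.96), 5.89 (5.00 to 6.90) and 8.16 (7.18 to 9.24) CPM afterwards. Over the whole library its 6 h level was thus already that of 24 h, and the 15 h library lay below both by more than counting error. Its levels by cluster, given below, did not all follow this course. Bambi rested on 22 to 64 UMIs per library and was at 0.805, 1.97, 1.67 and 1.89 CPM, with the 15 h interval (1.22 to 2.25) just overlapping that of 0 h (0.504 to 1.22). Smurf1 was at 7.68, 11.8, 14.5 and 16.5 CPM.

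The 3 remaining genes had the smallest ratios. Smurf2 was at 29.7, 35.5, 38.7 and 43.0 CPM, Ski at 44.8, 52.8, 60.2 and 64.1 CPM and Tgif1 at 104, 127, 145 and 157 CPM. The 24 h ratios were 1.45, 1.43 and 1.52, so only Tgif1 passed the limit of 1.5, and barely. When the 50 highest genes were left out of library size its ratio was 1.495, under the limit. With cells thinned to 2000 UMIs, 2.73% of 2932 cells had a Pmepa1 UMI at 0 h (95% Clopper-Pearson 2.17 to 3.38) and 38.9% of 2218 cells at 24 h (36.9 to 41.0), and without thinning the shares were 12.7% and 71.6%. No cell type known to lack the gene was present in these libraries, so no background share is given.

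Cells were clustered without the 9 genes, and a cluster was named where the median fold of a marker list was 2 or more. The enterocyte-like cluster had a median fold of 4.08 over 8 enterocyte markers, but none of them was among its 10 leading genes (Slc5a4b, Reg3a and Slc13a2 led it). The stem-like cluster had a median fold of 3.45 over its markers, but it was led by Fstl1, Cym and Ccn2. Only 1 stem marker, Lgr5, was among its 10 leading genes. Fstl1 itself rose with TGFB1 in bulk (log2 changes 2.47, 2.42 and 1.44), and the part of the TGFB1 response in this cluster was not tested. In the mitotic-like, stem-like and regenerative-like clusters (the last led by Anxa8, Ly6d and Msln) Pmepa1 was at 21.7, 24.5 and 31.2 CPM at 0 h and at 527, 575 and 563 CPM at 24 h. In the enterocyte-like cluster, whose cells absorb nutrients, it was at 6.41 CPM (4.51 to 8.83) and 41.2 CPM (34.5 to 48.7). The enterocyte-like level was below the other 3 at each time. Skil differed less between these clusters, at 32.6 to 81.1 CPM from 0 to 24 h in enterocyte-like and 30.5 to 114 CPM in stem-like cells. Over the unnamed clusters, Pmepa1 was at 11.6 CPM (9.29 to 14.2) at 0 h and 144 CPM (137 to 150) at 24 h.

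Smurf1 did not differ beyond counting error in enterocyte-like cells, at 4.68 CPM (3.08 to 6.80) at 0 h and 5.84 CPM (3.51 to 9.11) at 24 h. The same held for the unnamed clusters, at 6.81 CPM (5.10 to 8.90) and 7.18 CPM (5.77 to 8.84). At 15 h these were at 10.9 CPM (8.96 to 13.1). Smurf1 was at 7.80 CPM (3.57 to 14.8) at 0 h and 36.1 CPM (31.0 to 41.7) at 24 h in regenerative-like cells. It was also higher at 24 h in stem-like (8.36 and 21.1 CPM) and mitotic-like cells (11.1 and 22.8 CPM). Smad7, in contrast, was at 20.8 to 39.9 CPM in enterocyte-like and 6.57 to 40.4 CPM in stem-like cells, and at 24 h its intervals overlapped among all 4 clusters. Tgif1 was at 72.4 to 90.9 CPM in enterocyte-like and 110 to 212 CPM in stem-like cells. Smad6 at 24 h was at 16.4 CPM (12.8 to 20.7) in the mitotic-like and 10.5 CPM (7.92 to 13.6) in the stem-like cluster, which overlap, and at 6.55 CPM (4.51 to 9.19) in the regenerative-like and 2.46 CPM (1.06 to 4.84) in the enterocyte-like one. From 0 to 24 h it was at 2.39, 5.81, 7.21 and 10.5 CPM in stem-like cells, with overlapping intervals between neighbouring times. In mitotic-like cells it was at 2.81, 12.5, 8.00 and 16.4 CPM.

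The share of cells in these clusters also moved with time, so a library's level joins both. Enterocyte-like cells made up 23.4% at 0 h and 10.2% at 24 h, stem-like cells 7.95% and 17.9%, regenerative-like cells 3.99% and 12.4% and mitotic-like cells 18.04% and 9.56%. S phase-like cells, led by genes of DNA replication, went from 14.4% to 0.496%. Unnamed clusters held 32.2% of the cells at 0 h and 49.5% at 24 h. The Pmepa1 intervals at 0 and 24 h did not overlap within the enterocyte-like or the stem-like cluster.

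**Figure D4:**
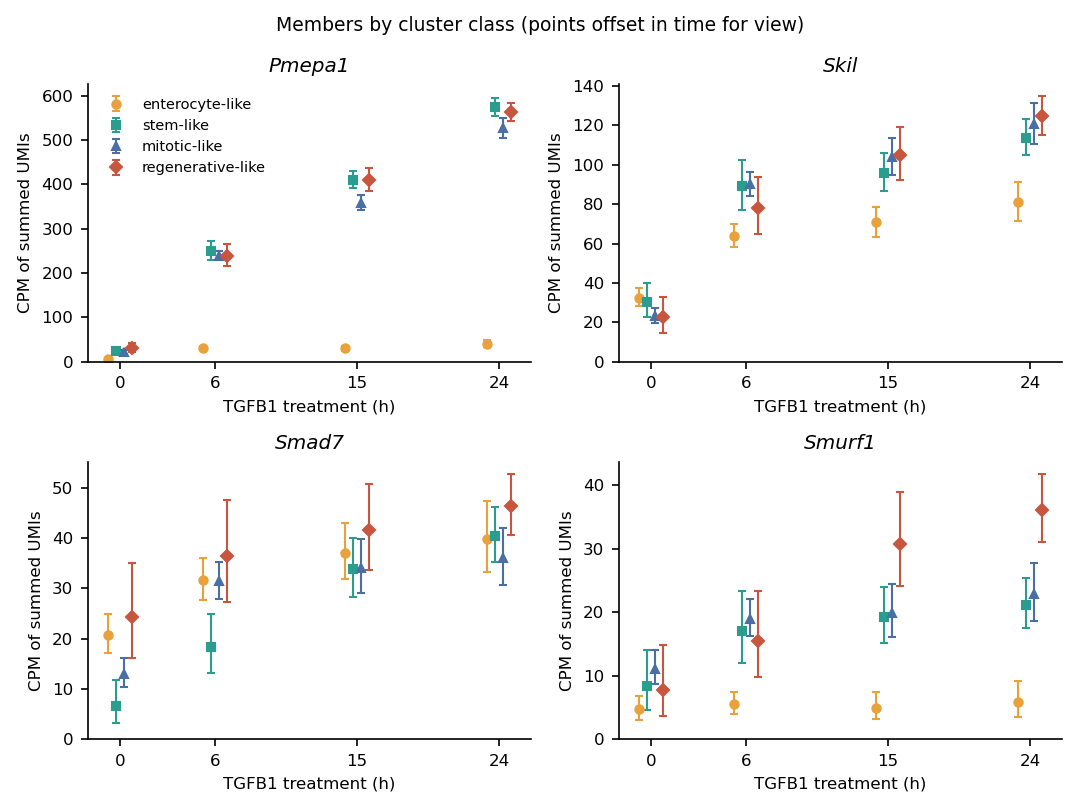
CPM of summed UMIs (y axis, from 0) of Pmepa1, Skil, Smad7 and Smurf1 against hours of TGFB1 (x axis, points offset for view) in 4 named clusters of irradiated organoids; bars are exact Poisson 95% intervals. Enterocyte-like Pmepa1 reached 41.2 CPM at 24 h, against 527 to 575 CPM in the other 3 clusters, while the Smad7 intervals of the 4 clusters overlapped at 24 h.

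In the sorted Ki67-RFP+ crypt cells no TGFB1 was added, and the comparison is between 1 non-irradiated library and 2 libraries at 56 h after irradiation. Pmepa1 was at 11.7 CPM (10.4 to 13.1) in the non-irradiated library and at 96.6 (91.4 to 102) and 106 (100.3 to 112) CPM in the irradiated ones, 8.26 and 9.06 times as much. Smurf1 was at 8.54 CPM against 12.96 and 14.5 CPM, and one of its ratios was 1.48, under the limit, when the 50 highest genes were left out of library size. Over all kept cells of a library, both inhibitory SMADs were lower: Smad7 at 27.6 CPM against 17.3 and 17.8 CPM, and Smad6 at 9.04 CPM against 1.75 and 0.770 CPM, the last from 9.5 UMIs. With whole-number entries only, the Smad7 ratios were 0.682 and 0.695, which did not reach the rule.

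By the same rule applied to both irradiated libraries, 2 of 9 members were higher and 2 lower. Of 8620 genes with a mean of at least 10 CPM, 18.9% were higher and 10.0% lower. That set leaves out Bambi and also Smad6, 1 of the 2 lower members. Skil was at 22.9 CPM against 28.5 and 24.5, Ski at 31.1 against 33.2 and 32.4, and Smurf2 at 24.5 against 23.6 and 25.2 CPM, without a difference that reached the rule. Tgif1 was at 51.6 CPM against 67.9 and 67.4 CPM, 1.31 times in both, below the limit of 1.5. Bambi was at 1.28 CPM against 2.62 and 1.30 CPM. Tgfb1 itself was at 6.58 CPM in the non-irradiated library and at 19.2 and 20.1 CPM in the irradiated ones.

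**Figure D5:**
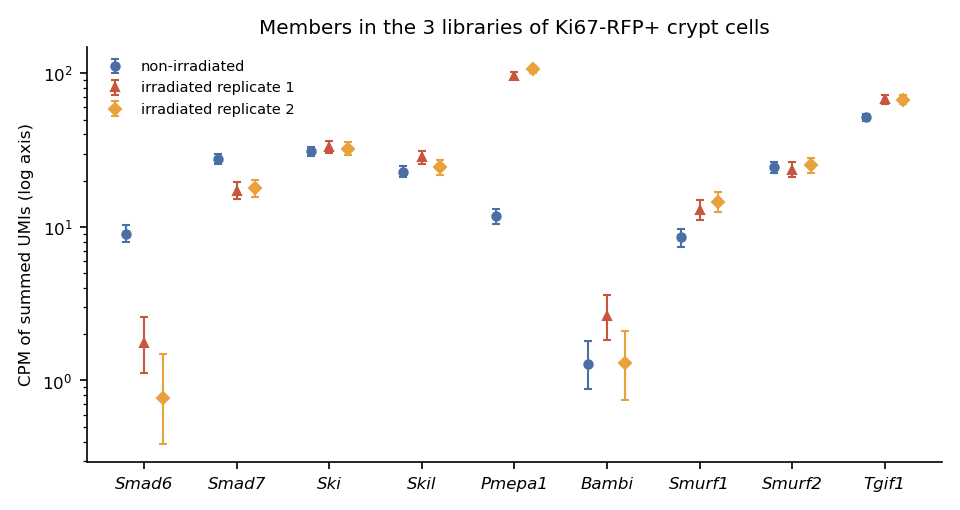
CPM of summed UMIs (y axis, log scale) of the 9 genes in the 3 libraries of Ki67-RFP+ crypt cells; bars are exact Poisson 95% intervals, 1 library per point. Pmepa1 was at 11.7 CPM in the non-irradiated library and at 96.6 and 106 CPM in the irradiated ones, whereas Smad6 was at 9.04, 1.75 and 0.770 CPM.

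The cells of the irradiated and non-irradiated Ki67-RFP libraries fell into different clusters: the regenerative-like cluster held 255 and 341 cells of the irradiated libraries and none of the non-irradiated one, and the stem-like cluster held 804 non-irradiated cells only. No named cluster held 50 cells of each library, so levels within a shared cell type could not be compared. In the non-irradiated library Smad7 was at 17.7 CPM (15.3 to 20.4) in stem-like and 41.3 CPM (35.6 to 47.7) in enterocyte-like cells. In the irradiated libraries it was at 18.5 CPM (14.7 to 22.8) and 17.6 CPM (14.5 to 21.1) in regenerative-like cells. Smad6 was at 4.95 CPM in those stem-like cells and at 1.09 and 0.622 CPM in the regenerative-like ones. The part of cell composition in the lower SMAD levels was not tested. The 6 immune markers summed to 7.10, 7.41 and 5.11 CPM in these 3 libraries and the 6 endothelial markers to 6.26, 10.8 and 11.7 CPM, and their part in the differences was not tested. Only 8 of the cells lay in an immune-like cluster.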

How the data were processed

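Bulk RNA-seq values are FPKM as deposited by the authors, in 3 tables of 6 libraries. TopHat2 2.1.0 and Cuffnorm 2.2.1 are named in the submitters' processing notes without a role, and no read depth is stated. Log2 values with a pseudocount of 1 went into limma 3.58.1 (trend, robust; R 4.3.3), two-sided, for genes whose mean in the libraries of a comparison reached 1 FPKM.

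Single-cell matrices were deposited by the authors in the form of expected counts of UMIs, and STARsolo and STAR 2.7.10a are named in the same notes. Fractional values stayed as they were in sums, and were rounded to whole numbers for the Poisson intervals only. A cell needed 500 UMIs, 250 genes and a mitochondrial share of 20% or less. No doublet caller was run. Cells were clustered with scanpy 1.11.5 and leidenalg 0.10.2 (2000 variable genes, 30 principal components, 15 neighbours, resolution 0.6). A cluster took the name of its best marker list where the median fold of that list was 2 or more and 3 of its markers were detected, unless another list had more markers among the top 10 genes. Clusters with 5 or more pseudogenes or small RNAs among their top 10 genes stayed unnamed; this last rule was added on seeing the clusters.

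All 9 members are named, other pathway genes from a log2 change of 1 (some items are not reported here), and 3 nearest genes for each of Smad7, Pmepa1 and Skil. Members and lists were chosen with earlier results of these data known. The 18 ATAC-seq libraries were not used here, because their peaks run past the end of chromosome 1 in the build of the promoter windows. The limma steps and the single-cell rule were tested on simulated data. The single-cell simulation held counting error only, without variation between libraries. It therefore cannot show how often the rule calls genes between unreplicated libraries. Alternatives are given in the closing section.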

Additional observations from a re-analysis of the deposited data

Results flagged for a closer look

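The TGFB1 response differed between irradiated and non-irradiated organoids, by a test of the difference itself (limma, 12 libraries), for Smad6 (0.49 ± 0.09 SE on the log2 scale, adjusted p = 5.0e-04), Ski (0.23 ± 0.06, adjusted p = 0.0045) and Tgif1 (0.49 ± 0.07, adjusted p = 6.3e-05), each larger after irradiation. In the same kind of test between days in irradiated organoids it was smaller at D11 than at D7 for Smad6 (−1.13, adjusted p = 6.7e-05), Smad7 (−1.22, adjusted p = 1.4e-06), Ski (−0.39, adjusted p = 1.6e-04), Skil (−0.84, adjusted p = 5.4e-06), Pmepa1 (−0.54, adjusted p = 0.0020) and Tgif1 (−1.06, adjusted p = 1.4e-06). Among all genes, 53.1% and 64.5% differed in these 2 tests in either direction.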

How the results depend on the processing

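The number of members called was 8 in D7 non-IR and 8 to 9 in D7 IR under every alternative run (another pseudocount, no filter on low values, quantile normalization, median-ratio scaling, 1 fit of all libraries, the replicate block, and leaving out each replicate). It was 6 to 7 in D11 IR, 3 to 4 for irradiation and 5 to 6 for day. With the replicate block the counts were 8, 8, 6, 3 and 6. Whether the replicate numbers pair the libraries is not known. Deviations of same-numbered libraries correlated at −0.0856 to 0.213, and some but not all libraries correlated best with their own number. With 3 libraries per group this cannot exclude pairing. Directions turned for terms that did not pass: under quantile normalization for irradiation, Skil was −0.11, Pmepa1 −0.0184 and Smurf1 −0.0096, and for day Smurf1 was 0.0338. Leaving out single replicates gave −0.249 to 0.0357 for Smad6 at D11, −0.0346 to 0.0503 for Skil and irradiation, and −0.104 to 0.0241 for Smurf1 and day. The causes were not tested. A pseudocount of 1 compresses changes of low genes: at 0.1, Skil at D11 was 1.96, Smad7 at D11 1.09 and Pmepa1 in D7 non-IR 4.57. In single cells the counts of higher members were 6 at 6 h under each alternative, 5 to 6 at 15 h and 6 to 7 at 24 h. The 6 at 24 h came without the 50 highest genes in library size, where Tgif1 was at 1.495. In Ki67-RFP+ cells the number higher was 1 when the 50 highest genes were left out of library size (Smurf1 was at 1.48 in 1 library), and the number lower was 1 with whole-number entries only (Smad7 was at 0.682 and 0.695); the cause was not tested. Levels of Bambi, at 16 to 64 UMIs per library, are limited by depth.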
